A study of Mus musculus with 12 samples.

Results

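Embryoid bodies and monolayer cultures of mouse embryonic stem cells were compared after 1 day of differentiation. The comparison used every array that carries either of these 2 labels, which gave 2 embryoid body (EB) arrays and 2 monolayer (ML) arrays, 4 of the 12 arrays of the series. The series holds 6 groups of 2 arrays: undifferentiated cells, whose titles name leukaemia inhibitory factor (LIF), EB at days 1, 3 and 4, and ML at days 1 and 3. All cells were embryonic stem cells of strain 129, and no label gives a further allele, agent or medium for any group. Within each group the arrays are labelled clone #1 and clone #2, and the submitters state that different people did 2 independent experiments at each time. No label says whether the clones are sublines or cultures, so the p-values below measure only the spread between arrays. Total RNA was labelled with Cy3 and hybridised to whole-genome expression arrays, 1 sample per array.

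An embryoid body is a ball of embryonic stem cells that aggregate in suspension, where the outer cells face the medium and the inner ones contact other cells only. A monolayer keeps the same cells spread on a dish, where integrins tie the actin cytoskeleton to the matrix. Tension on that cytoskeleton and low cell density are known to bring the coactivators YAP and TAZ into the nucleus, where they act through TEAD factors, while actin polymerisation frees the MRTF partners of serum response factor (SRF). Both routes switch on a shared group of genes for secreted matricellular proteins and for the contractile apparatus. Aggregated stem cells are also known to pass through an epiblast-like state and to form endoderm and primitive streak cells.

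The EB arrays shared 1 slide and the ML arrays another, so culture format and slide cannot be told apart. All 4 were scanned on the same day with the same scanner. The arrays of undifferentiated cells lay on a further slide and were scanned on another day. Where their levels are given beside those of day 1, cell state cannot be told apart from slide and scan day. On the EB arrays 56.3% and 59.3% of the 43379 non-control spots were well above background, and on the ML arrays 59.1% and 57.9%. Levels are given as log2 of the processed signal relative to the array's own 75th percentile, so 0 is that percentile and each unit is a doubling. The 10 spike-in control probes differed between EB and ML by 0.03 on average after this scaling, with a range from -0.267 to 0.118, and the arrays of the 2 formats overlapped for all but 1 of them. Embryonic stem cell markers were well expressed in both formats: Pou5f1 was at 3.72 and 3.24 in EB and at 3.67 and 4.00 in ML, and Sox2 at 3.31 and 3.65 against 3.32 and 3.40.

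Few genes passed the test between the 2 formats at day 1, which with 2 arrays a group does not show that the rest were alike. Mean levels differed by a log2 of at least 1 for 444 genes higher in EB and 634 lower. Single arrays of the same format differed as far for 601 genes in EB and 736 in ML. Across the 17726 genes tested, the EB arrays correlated at 0.992 with each other, the ML arrays at 0.991, and EB with ML arrays at 0.983 to 0.984, correlations across genes that are not independent. limma, fitted to all 12 arrays, called 12 genes at a Benjamini-Hochberg adjusted p under 0.05, or 0.0677% of those tested. Mgp alone was higher in EB (0.00564%), and 11 genes were lower (0.0621%). At an unadjusted p under 0.05, 780 genes were higher (4.4%) and 862 lower (4.86%). Both EB arrays lay above both ML arrays for 3999 genes (22.6%) and below them for 5268 genes (29.7%), and the median change of all genes was -0.057. With quantile normalization, another scaling of the arrays, these counts were 4757 and 4618. At an unadjusted p under 0.05 (limma), 870 genes were then higher and 699 lower. The excess of lower genes thus depended on the scaling.

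**Figure D1:**
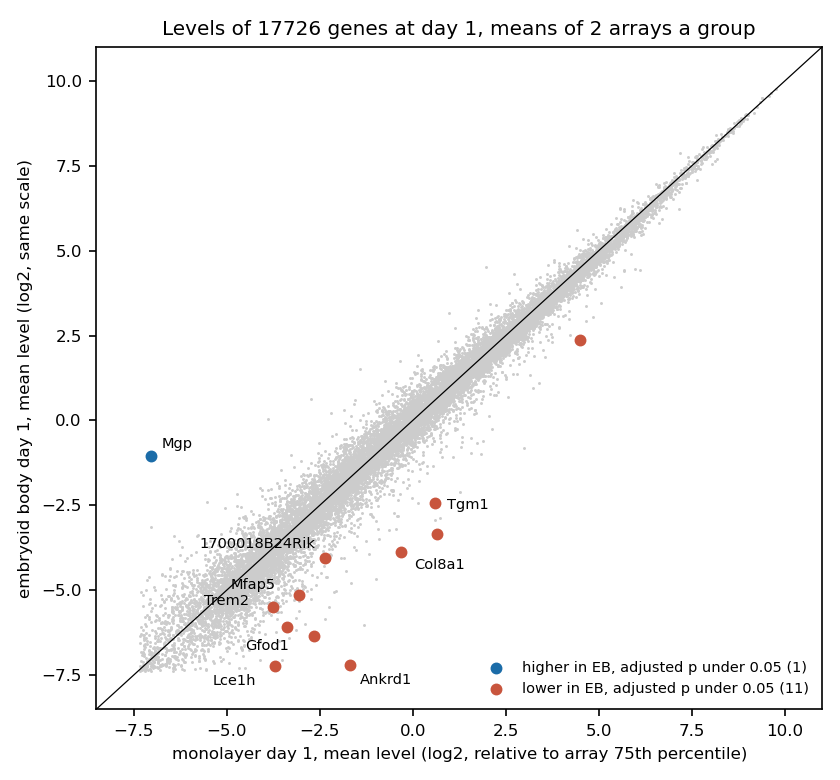
Mean level of each of 17726 genes in embryoid bodies (vertical axis) and monolayers (horizontal axis) at day 1, in log2 relative to the array's 75th percentile, with 2 arrays per mean and a line of equality. The blue point is Mgp, the 1 gene called higher in EB, and the 11 red points are the genes called lower, not all of which carry a name.

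Mgp encodes matrix Gla protein, a secreted, vitamin K-dependent inhibitor of calcification. Its level was -0.82 and -1.29 on the EB arrays and -7.25 and -6.80 on the ML arrays. Neither ML array was well above background, while both EB arrays were. Mgp was at least 16.1-fold higher in EB, measured against the lowest signal that stood well above background on the ML arrays (log2 change 5.97 ± 0.34 SE, adjusted p = 0.000422, limma). Undifferentiated cells were at -0.62 and -1.50. The probe lies at chr6:136821125-136821184 on the minus strand of mm9, the build of the array files, and no annotation of that build was used here. With any 1 of the 4 arrays left out Mgp was still called, at log2 changes of 5.74 to 6.20.

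Col8a1, the alpha 1 chain of the short-chain collagen VIII, went the other way. Its level was -3.49 and -4.27 on the EB arrays against -0.51 and -0.09 on the ML arrays, so the formats did not overlap. The gene was 11.9-fold lower in EB (log2 change -3.58 ± 0.45 SE, adjusted p = 0.0339, limma). Col8a1 was not called with a term for the replicate number in the fit, with the compared groups fitted alone or without the filter on dim probes. It was also not called with any 1 array of the compared groups left out, at log2 changes of -3.97 to -3.19. A second, dimmer probe of Col8a1 gave a change of -2.80. Undifferentiated cells, on another slide and scan day, were at 1.69 and 0.32, above both formats. The probe lies at chr16:57627033-57627092 on the minus strand of mm9.

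Ankrd1, a known target of YAP, was called lower in EB as well. It encodes an ankyrin repeat protein of the nucleus and the sarcomere. It stood at -6.97 and -7.43 on the EB arrays, where it was not well above background, and at -2.33 and -1.06 on the ML arrays. Ankrd1 was thus at least 10.1-fold lower in EB (log2 change -5.51 ± 0.59 SE, adjusted p = 0.023, limma), and undifferentiated cells were at 0.55 and 0.02. The ML arrays were further apart than the EB arrays. Without ML replicate 1 the fitted change was -6.14, and without ML replicate 2 it was -4.87.

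Tgm1, Lce1h and Mfap5 were called lower in EB as well. Tgm1, the transglutaminase that cross-links the cornified envelope, was at -2.22 and -2.62 in EB and at 0.82 and 0.36 in ML (log2 change -3.01 ± 0.37 SE, adjusted p = 0.0339, limma). Lce1h, a late cornified envelope gene, was not well above background in EB and was at -4.27 and -3.11 in ML, at least 2.52-fold lower in EB. Lce1h lies in a cluster of close relatives, so part of its signal may come from another copy. Mfap5, a glycoprotein of elastic microfibrils, was at -4.94 and -5.33 against -3.07 and -3.04, and at least 3.93-fold lower.

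A further 5 called genes were lower in EB too. Gfod1 was at least 3.13-fold lower and Trem2, a lipid-sensing receptor of macrophages and microglia, at least 2.41-fold, and neither was well above background in EB. The transcript 1700018B24Rik was at -3.99 and -4.14 in EB against -2.49 and -2.24 in ML (log2 change -1.70 ± 0.21 SE). Of the 2 transcripts known only by Ensembl identifier, ENSMUST00000079391 was at least 5.23-fold lower in EB and ENSMUST00000088552 had a log2 change of -2.12 ± 0.28 SE. The second probes of Trem2, Gfod1 and 1700018B24Rik did not pass the filter on dim probes. The calls depended on single arrays: without EB replicate 1 or ML replicate 2, Mgp was the only gene called, and without EB replicate 2 or ML replicate 1 the counts were 4 and 5. Where a probe had to be well above background on all 12 arrays, Mgp, Ankrd1 and Col8a1 were not tested and none of 13480 genes was called by limma (1218 at an unadjusted p under 0.05).

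**Figure D2:**
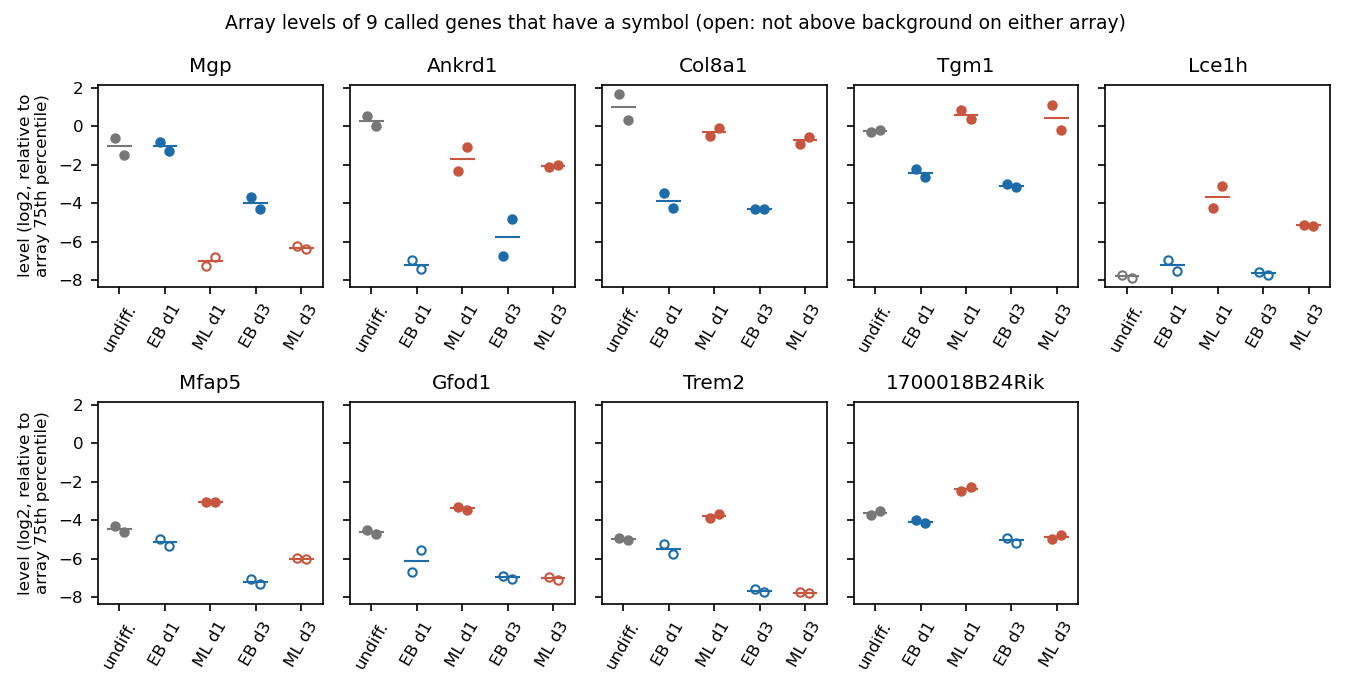
Level on each array (points, log2 relative to the array's 75th percentile) and group mean (bars) of 9 called genes that have a symbol, in undifferentiated cells (grey), EB (blue) and ML (red) at days 1 and 3, 2 arrays a group; open points mark groups in which neither array was well above background. At day 1 the EB points of Mgp sit above the ML points, and those of the other 8 genes below.

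Several genes had large differences without passing the threshold. Fabp7, a brain-type fatty acid-binding protein, was at 0.63 and -0.53 in EB against -3.69 and -4.11 in ML (log2 change 3.95 ± 0.55 SE, adjusted p = 0.0504, limma). Eprn, a long non-coding RNA, was at -0.78 and -0.84 in EB against 2.92 and 3.08 in ML (-3.81 ± 0.55 SE, adjusted p = 0.0504). Lox, which cross-links collagen and elastin, was not well above background in EB and was at -3.26 and -1.45 in ML (adjusted p = 0.0504), which bounds the difference at 6.38-fold or more. Thbs1, the matricellular protein thrombospondin 1, was at -4.32 and -5.03 in EB against -1.09 and -0.85 in ML (-3.70 ± 0.61 SE, adjusted p = 0.077), and 2 further Thbs1 probes gave changes of -3.68 and -2.91. Acta1, the skeletal muscle actin, was at -3.17 and -2.60 against 1.09 and 0.37 (-3.61 ± 0.58 SE, adjusted p = 0.0734). The arrays of these 5 genes did not overlap between the formats, but this was a condition of choosing them and adds no support. Over all genes, 22.6% lay higher and 29.7% lower on both EB arrays.

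YAP and SRF target genes were mostly lower in EB. Of 24 tested genes, 1 was called lower (Ankrd1) and none higher, 18 lay lower on both EB arrays than on both ML arrays and 1 higher, where 29.7% and 22.6% of all genes did. At an unadjusted p under 0.05, 12 of the 24 were lower, beside 4.86% of all genes. The median change of the list was -0.588, against -0.057 for all genes. Ccn1, a secreted matricellular protein, was at -0.58 and -0.61 in EB and at 2.13 and 1.67 in ML (-2.50 ± 0.35 SE, adjusted p = 0.0504, limma). Ccn2, its relative also known as CTGF, was at 3.22 and 2.87 against 4.95 and 4.74 (-1.79 ± 0.31 SE, adjusted p = 0.0878).

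The contractile members of that list had smaller differences, and the regulators themselves smaller ones still. The calponin Cnn2 (-1.43), the tropomyosin Tpm1 (-1.21) and transgelin Tagln (-1.18) were each lower on both EB arrays, as were the smooth muscle actins Acta2 (-0.64) and Actg2 (-0.71). Amotl2 (-1.46) and Ajuba (-1.27), both known to act on the kinases upstream of YAP, were lower on both EB arrays as well. None of these 7 genes passed the test. Yap1 itself had a change of -0.01, the TAZ gene Wwtr1 0.42 and Tead1 -0.37, all with overlapping arrays, and Srf had -0.35. The immediate early SRF targets Egr1 (0.63) and Fos (0.08) did not share the direction, and neither did Actb (-0.01).

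The sequence before the start of these genes shows the letters by which TEAD and SRF are known to bind, and 4 windows are given because their genes are lower in EB in the values above or belong to the list. They are from RefSeq on GRCm38.p6, read 5′ to 3′ along the gene's strand, with capitals for GGAATG or its reverse complement CATTCC (TEAD), for the CArG box (SRF) and for TATAAA. The Ankrd1 window lies at chr19:36119950-36120066 (minus strand), that of Ccn1 at chr3:145649993-145650100 (minus), that of Acta1 at chr8:123894776-123894860 (minus) and that of Actg1 at chr11:120348564-120348597 (minus).
Ankrd1: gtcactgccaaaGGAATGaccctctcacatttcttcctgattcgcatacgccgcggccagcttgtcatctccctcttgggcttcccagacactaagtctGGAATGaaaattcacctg
Ccn1: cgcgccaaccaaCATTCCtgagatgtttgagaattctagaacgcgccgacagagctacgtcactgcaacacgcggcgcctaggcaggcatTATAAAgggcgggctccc
Acta1: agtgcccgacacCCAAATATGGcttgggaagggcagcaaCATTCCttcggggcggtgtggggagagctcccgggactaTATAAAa
Actg1: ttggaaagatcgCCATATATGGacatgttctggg

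Ankrd1 holds the TEAD letters at 210 and 123 bases before its start, Ccn1 at 103 and Acta1 at 46, and the CArG boxes of Acta1 and Actg1 begin at 73 and 90 bases. Of the 24 tested genes of the YAP and SRF list, 18 had an entry, with 20 windows of 300 bases (250 before the start to 50 after). GGAATG on either strand was in 13 of the 20 windows (65.0%) and in 14.7% of all 32851 windows, and the CArG box was in 4 (20.0%) and in 1.63%. The list was drawn up from known targets of these factors, so such shares describe how it was chosen. Mgp is named only.

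Sterol and fatty acid synthesis genes showed the opposite pattern, small and spread over nearly the whole pathway. All 27 listed genes had a positive change, from 0.07 to 1.22, and none was called. Both EB arrays lay above both ML arrays for 22 of them and below for 0, where 22.6% and 29.7% of all genes did, and 6 were higher at an unadjusted p under 0.05 (limma; 4.4% of all genes). The median change was 0.575. The desaturases, which put the double bond into stearoyl-CoA, led the list: Scd1 was at 1.20 and 0.82 in EB against -0.37 and -0.06 in ML (1.22 ± 0.34 SE), and Scd2 at 5.82 and 5.43 against 4.19 and 4.66 (1.20 ± 0.29 SE). The fatty acid enzymes Fasn (0.68) and Acaca (0.78) were higher on both EB arrays too. The transcription factors of the pathway had changes of 0.41 (Srebf2) and 0.39 (Srebf1). At day 3 the median of the list was 0.743, with 14 genes higher on both EB arrays (20.9% of all genes at that day) and none called.

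The window before Hmgcs1, an early enzyme of cholesterol synthesis, is given because, of the 17 listed genes with an entry, it alone had the sterol element in either of the forms searched, TCACCCCAC and TCACCCGAC. It lies at chr13:119690102-119690322 (plus strand, GRCm38.p6, RefSeq), with the element and each CCAAT box (ATTGG on the strand shown) in capitals.
Hmgcs1: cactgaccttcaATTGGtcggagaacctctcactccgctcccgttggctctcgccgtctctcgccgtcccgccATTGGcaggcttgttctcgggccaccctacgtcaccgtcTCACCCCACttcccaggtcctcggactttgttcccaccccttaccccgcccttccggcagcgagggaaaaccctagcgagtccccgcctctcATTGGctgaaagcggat

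The element starts 137 bases before the start of Hmgcs1, and its level was 5.65 and 5.34 in EB against 4.61 and 5.05 in ML. These forms were in 1 of 22 windows of the list (4.5%) and in 0.658% of all windows on either strand. CCAAT was in 17 of the 22 (77.3%), in 37.4% of all windows, and also in 77.3% of those of the proliferation list, whose genes had a median change of -0.217 (-0.0649 without ML replicate 2).

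**Figure D3:**
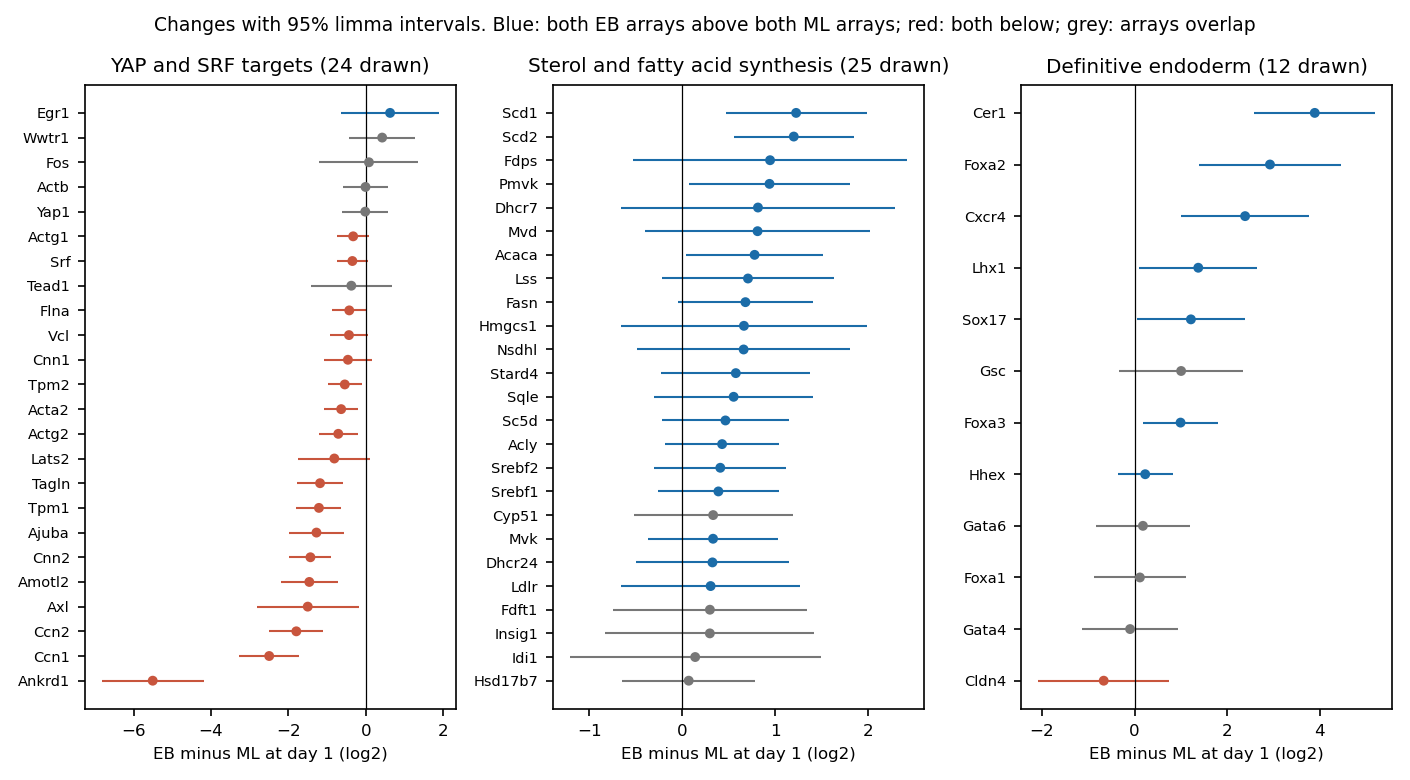
Change of the tested genes of 3 lists (25 of the 27 sterol and fatty acid genes, every gene of the others) between EB and ML at day 1 (log2, positive where EB is higher), with 95% limma intervals; blue points are genes with both EB arrays above both ML arrays, red points those with both below, grey points those that overlap. Most YAP and SRF targets sit left of 0, with Ankrd1 at -5.51, and the sterol genes sit right of 0 in a narrow band.

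Part of the definitive endoderm list lay higher in EB. Of 12 tested genes none was called, and 7 lay higher on both EB arrays and 1 lower (22.6% and 29.7% of all genes). At an unadjusted p under 0.05 (limma), 6 were higher, beside 4.4% of all genes. The median change was 0.998 (0.316 with normexp, another background correction, and 0.414 without EB replicate 1). Cer1, which encodes a secreted inhibitor of Nodal and BMP signals, was at -2.12 and -4.15 in EB and not well above background in ML (at least 3.81-fold, adjusted p = 0.0551, limma). Foxa2, the pioneer factor of endoderm, was at 2.47 and 0.54 against -2.33 and -0.51 (2.92 ± 0.68 SE, adjusted p = 0.2). Both genes were higher in EB replicate 1 than in replicate 2, and the change of Cer1 was 2.88 without EB replicate 1 and 4.90 without EB replicate 2, where it was called (adjusted p = 0.0187). The chemokine receptor gene Cxcr4 was at -3.86 and -4.29 in EB and not well above background in ML. Sox17 had a change of 1.22 ± 0.52 SE, whereas the arrays overlapped for Gata6 (0.18) and Gata4 (-0.10).

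Among primitive streak genes the members did not go together. Eomes, a T-box factor of streak and trophoblast, was at 0.86 and -0.24 in EB against -2.14 and -1.57 in ML (2.17 ± 0.59 SE, adjusted p = 0.28, limma), and Fgf8 at 2.56 and 0.96 against -0.69 and 0.01 (2.10 ± 0.46 SE). The T gene, which encodes brachyury, overlapped between formats, with -1.16 and -3.42 in EB against -3.68 and -3.33. Mixl1, a streak homeobox gene, was on the other side: it was not well above background in EB and stood at -3.57 and -4.03 in ML (at least 2.34-fold, adjusted p = 0.18). Of the 18 genes of that list, 4 lay higher and 5 lower on both EB arrays, close to the shares of all genes.

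Pluripotency genes gave no call in either direction. Nanog was at 1.95 and 1.37 in EB against 1.75 and 1.37 in ML, with a 95% interval of the difference from -0.73 to 0.94, and that of Sox2 ran from -0.67 to 0.91 and that of Pou5f1 from -1.13 to 0.42. Over all genes 29.7% lay lower on both EB arrays and 22.6% higher. Of the 11 core genes 6 lay lower and none higher (5 and 2 with quantile normalization), with a median of -0.40. Lin28a, an RNA-binding repressor of let-7, was at 3.28 and 3.14 against 3.80 and 3.70. Of 18 naive-state genes 9 lay lower and 1 higher, with a median of -0.113 (-0.0204 with normexp, -0.269 without EB replicate 1, -0.223 without ML replicate 2), and Klf4 was at 2.16 and 1.78 against 2.68 and 2.94. Of 20 formative genes 10 lay higher and 1 lower, with a median of 0.191 (0.343 without ML replicate 2), led by Wnt8a (2.16) and Fst (1.55). Fgf5, the usual marker of the early epiblast, was at 4.06 and 3.46 in EB against 2.41 and 2.78 in ML (1.16 ± 0.58 SE), and at -2.04 on average in undifferentiated cells. Otx2 (0.41), Dnmt3b (0.41) and Pou3f1 (0.08) had smaller differences.

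Genes of the BMP pathway lay lower in EB more often than higher, and none passed the test. Id1, an inhibitor of bHLH factors that BMP induces, was at 2.39 and 2.64 in EB against 4.44 and 4.02 in ML (-1.72 ± 0.36 SE, adjusted p = 0.158, limma), and its second probe gave -1.69. Id2 (-1.09), Id3 (-0.99) and Msx1 (-0.91) were lower on both EB arrays, and so was the ligand Bmp8b (-0.80). The ligands Bmp4 (-0.39) and Bmp7 (-0.06) had overlapping arrays. Of 17 tested genes 8 lay lower and 1 higher on both EB arrays, where 29.7% and 22.6% of all genes did, and 5 were lower at an unadjusted p under 0.05 (4.86% of all genes). The median was -0.796, and it was -0.401 with normexp, -0.419 without EB replicate 2 and -0.509 without ML replicate 1.

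The trophoblast list, which holds Krt8 and Krt18, lay mostly lower in EB, as did Krt19, and ML replicate 1 was the furthest from EB. Krt8, a keratin of simple epithelia, was at 3.99 and 3.85 in EB against 6.40 on ML replicate 1 and 4.79 on ML replicate 2. Its partner Krt18 was at 4.53 and 4.30 against 6.37 and 4.98, and Krt19 at 1.07 and 0.84 against 3.93 and 2.56. The list of epithelial keratins and junction genes as a whole went both ways. Of 17 tested genes 4 lay higher and 5 lower on both EB arrays, where 22.6% and 29.7% of all genes did. None was called, and the median was -0.033. Gata3, a trophoblast regulator, was not well above background in EB and was at -1.78 and -2.74 in ML (at least 6.84-fold, adjusted p = 0.214, limma), and Hand1 was at -2.85 and -4.34 in ML (at least 2.71-fold). Of 11 trophoblast genes 8 lay lower and 1 higher on both EB arrays, where 29.7% and 22.6% of all genes did, and none was called. The 1 higher was Eomes (2.17), and the arrays overlapped for the regulators Cdx2 (-0.73) and Tfap2c (-0.21). The median was -1.053, and it was -0.434 with normexp, -0.486 with the filter that asks for signal well above background on all 12 arrays, and -0.677 without ML replicate 1. The summed level of the list was 5.43 and 5.19 in EB, 7.41 on ML replicate 1 and 5.94 on ML replicate 2. Krt8 and Krt18, by far the brightest members, make up most of that sum, so it restates their levels. The placental lactogen gene Prl3d1 was at -3.25 and -3.43 against -3.06 and -3.14. In bulk RNA, fewer cells of a type and less RNA per cell cannot be told apart.

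Markers of other cell types were set beside these results. The feeder fibroblast list had 7 of 15 genes lower and 1 higher on both EB arrays (29.7% and 22.6% of all genes) and none called, with a summed level of 6.07 and 5.90 in EB against 6.74 and 6.82 in ML. Among its members Col1a1 (-1.86), Col1a2 (-1.18) and Col5a2 (-1.50) were lower on both EB arrays, whereas Col3a1 (0.49), Dcn (-0.18) and Thy1 (0.19) overlapped. Acta2 and Tagln stand in this list and in that of YAP and SRF targets, and the part of fibroblasts in the lower values was not tested. The median of the fibroblast list was -0.448, and it was -0.234 without EB replicate 2 and 0.09 without ML replicate 2. Extraembryonic endoderm genes summed to 6.21 on both EB arrays and to 6.54 and 6.27 in ML, neural genes to 3.56 and 3.35 against 3.67 and 3.37, and blood and endothelial genes to 1.40 and 1.57 against 1.47 and 1.43. The brightest members weigh most in such sums, and single genes differed. On both EB arrays 1 of 20 extraembryonic endoderm genes lay higher and 6 lower, 2 and 3 of 11 neural genes, and 3 and 5 of 10 blood and endothelial genes. None of them was called.

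Other matrix genes fell into both directions, as all genes did. Of 27 collagen chains 1 was called (Col8a1), and 6 lay higher and 6 lower on both EB arrays, where 22.6% and 29.7% of all genes did. The median was -0.141 (0.083 without EB replicate 2). Col6a1, a chain of the beaded-filament collagen VI, was at -1.71 and -2.66 in EB against -3.75 and -2.96 in ML. The metalloprotease genes Mmp3, Mmp10 and Mmp13 are given for the size of their differences, and none passed the test. Mmp3 was at 1.66 and -0.40 against -3.57 and -1.91 (3.37 ± 0.84 SE, adjusted p = 0.231, limma). Mmp10 was at -1.23 and -3.08 against -5.04 and -4.41, and its change of 2.57 ran from 1.64 to 3.49 with 1 array left out. Mmp13 was at -1.36 and -3.44 against -6.69 and -4.37, and its change of 3.13 ran from 1.97 to 4.29. For both genes 1 of the 2 ML arrays was well above background. Their inhibitor Timp1 was lower (-0.90), as was the urokinase receptor Plaur (-1.08). Of 23 proteases and inhibitors 7 lay higher and 7 lower on both EB arrays, beside 22.6% and 29.7% of all genes. Among 14 integrin genes Itga3, a laminin receptor subunit, had the largest change, with 0.17 and 0.25 in EB against 1.94 and 1.44 in ML (-1.48 ± 0.29 SE, adjusted p = 0.123). Of the 14, 5 lay lower and 1 higher on both EB arrays, where 29.7% and 22.6% of all genes did. None was called.

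**Figure D4:**
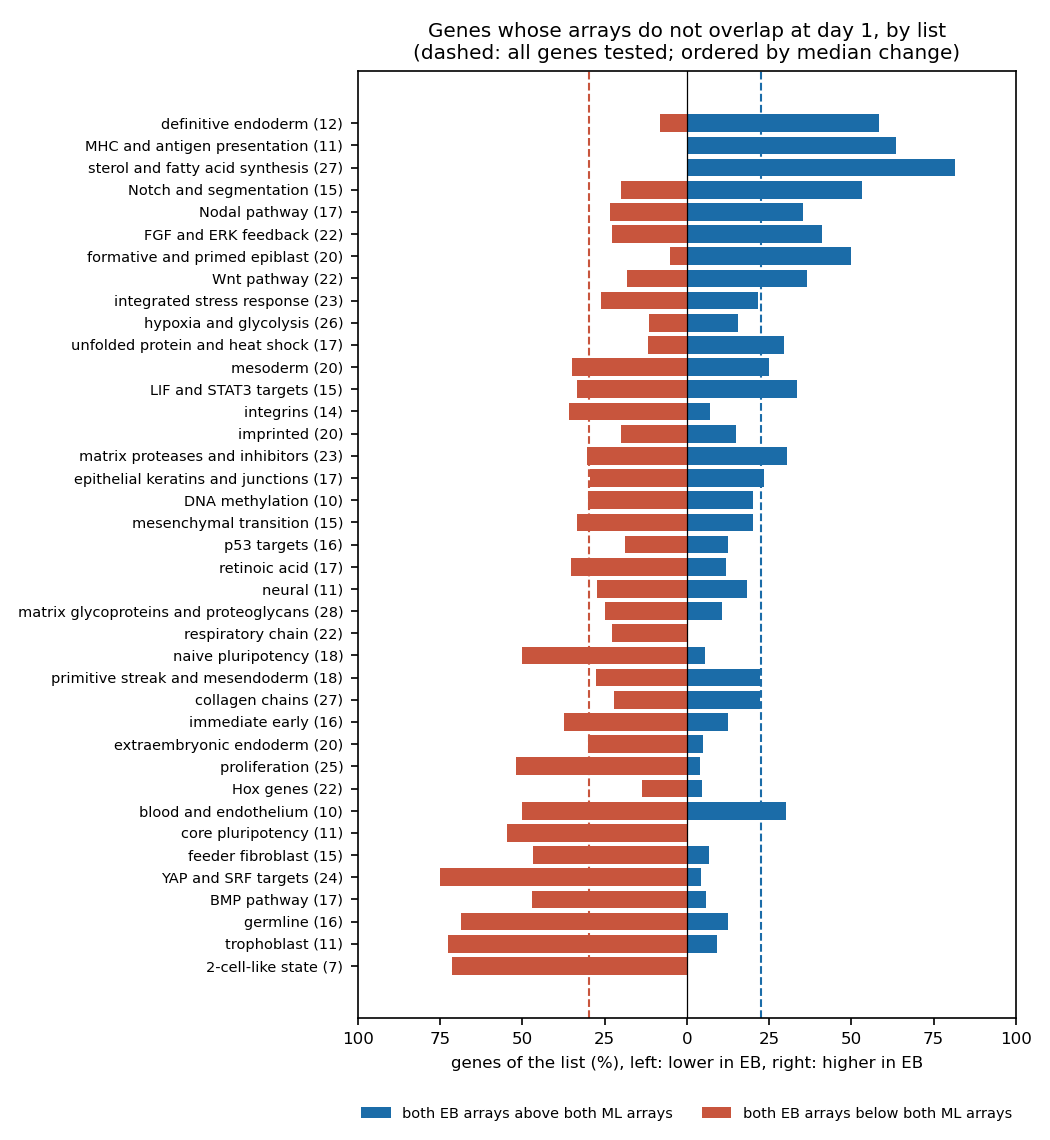
Share of the tested genes of each of 39 lists (number of genes in brackets) with both EB arrays above both ML arrays (blue, right) or below them (red, left) at day 1, ordered by the list's median change; dashed lines give the shares over all genes, 22.6% and 29.7%. The sterol list has no red bar, and the YAP and SRF list has the longest red bar.

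Of 11 tested antigen presentation genes 7 lay higher and 0 lower on both EB arrays at day 1, where 22.6% and 29.7% of all genes did, and none was called. H2-K1, a class I heavy chain, was at 4.22 and 3.80 in EB against 2.77 and 2.82 in ML (1.22 ± 0.21 SE, adjusted p = 0.0869, limma), and its other 3 probes gave changes of 0.96 to 1.22. Class I genes are near-identical copies, so their probes may share signal. H2-T23 (0.94), H2-D1 (0.64) and the peptide transporter subunit Tap2 (0.96) were higher on both EB arrays. B2m, the light chain, was at 2.28 and 1.52 against 2.14 and 1.17. The median of the list was 0.638, and it was 0.354 without EB replicate 1 and 1.04 without EB replicate 2.

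The same formats could be compared again at day 3 on the same slides. The fit also gives each gene a single spread for both days, so calls at the 2 days are not independent. At day 3, 286 genes were called higher (1.61%) and 300 lower in EB (1.69%), and both EB arrays lay above both ML arrays for 20.9% of genes and below for 19.6%. Of the 12 genes called at day 1, Mgp (2.32 ± 0.34 SE, adjusted p = 0.0111), Col8a1 (-3.57, 0.00543), Ankrd1 (-3.73, 0.0137) and Tgm1 (-3.53, 0.00282) were called in the same direction at day 3 by limma. Lce1h (-2.51), Mfap5 (-1.19), ENSMUST00000079391 (-5.15) and ENSMUST00000088552 (-1.97) were also called lower then, although Mfap5 was not well above background in either format, so its day 3 value has no fold. Trem2 (0.10), Gfod1 (0.05) and 1700018B24Rik (-0.18) were not called, and Trem2 and Gfod1 were not well above background in either format then. Ccn1 (-3.05, adjusted p = 0.00364) and Ccn2 (-2.29, 0.00762) were called at day 3. Of the 24 YAP and SRF genes 10 were called lower and 0 higher, and 20 lay lower on both EB arrays.

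The difference between the days passed the test for 42 genes (0.237%). Of the definitive endoderm genes, 10 of 12 were called higher at day 3, beside 1.61% of all genes. Their median was 3.682, against 0.022 for all genes. The EB minus ML change of Sox17 went from 1.22 to 5.95 and that of Gata6 from 0.18 to 4.70, with adjusted p-values of the difference of 0.0453 and 0.0293 (limma). Mixl1 went from -1.92 to 2.96 (0.0293). Among the 11 antigen presentation genes the difference between days passed for H2-K1 (1.22 at day 1 and -1.12 at day 3, 0.0293) and H2-T23 (0.94 and -1.29, 0.0293). The median of that list was -1.068 at day 3, with 3 genes called lower, beside 1.69% of all genes. Mgp was called higher in EB at both days, but ML was not well above background at either, so the sizes of its day 1 and day 3 differences have no order.

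**Figure D5:**
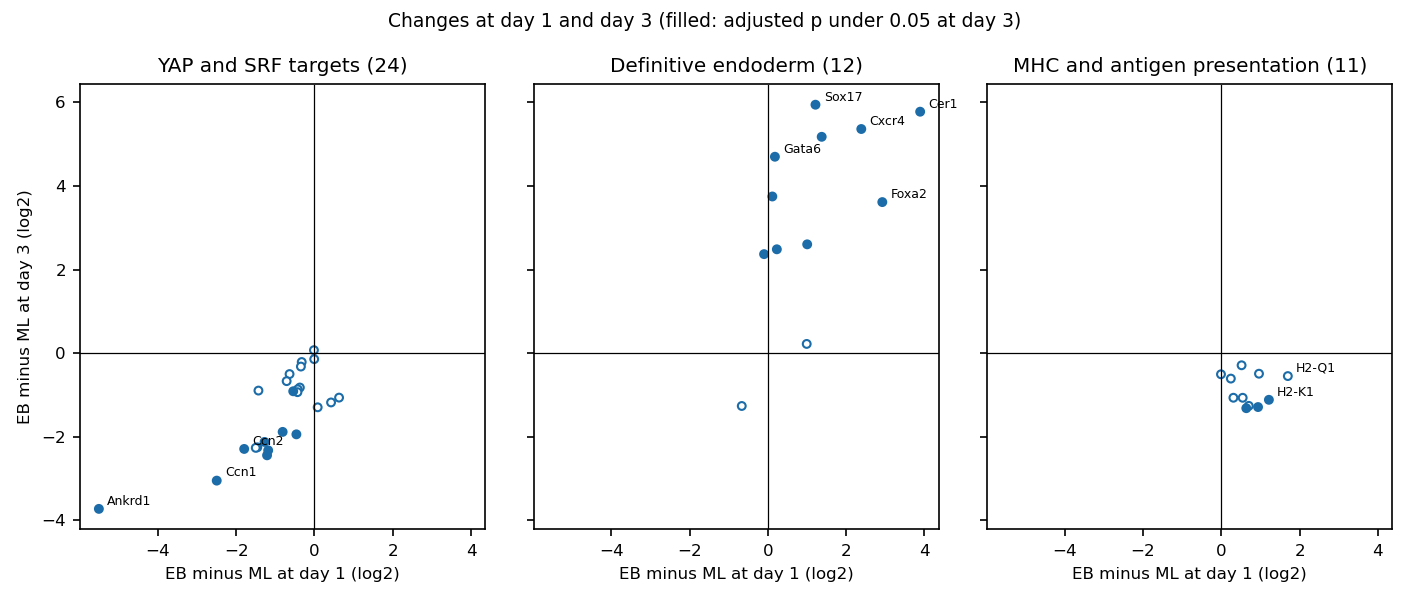
EB minus ML change at day 1 (horizontal) and at day 3 (vertical), in log2, for the genes of 3 lists, with filled points for genes called at day 3. YAP and SRF targets lie mostly in the lower left, most definitive endoderm genes lie well above 0 at day 3, and all 11 antigen presentation genes lie below 0 at day 3.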

How the data were processed

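Spot signals are intensity values, background-subtracted and detrended by Agilent Feature Extraction per the file headers, deposited with per-spot flags (other values). The submitters' processing notes name version 9.5.1.1, and the headers of the 4 arrays compared name 10.7.3.1. Those of the undifferentiated arrays name 10.5.1.1. The authors' deposited value table, also intensity, was used as an alternative. Each spot's processed signal was divided by the 75th percentile of its array and put on the log2 scale. Flagged outlier spots were left out, replicate spots averaged, and probes kept if well above background on both arrays of at least 1 group (26176 probes). The brightest probe represented each of 17726 genes, 14959 with a symbol. The data hold no counts, and the number of arrays limits precision.

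limma 3.58.1 (R 4.3.3) fitted 6 group means to 12 arrays, with 6 residual degrees of freedom, two-sided tests and Benjamini-Hochberg adjustment over all genes. Bounds ("at least") raise the arrays of a dim group to their lowest signal flagged as well above background. The arrays' 75th percentiles lay between 419.1 and 587.8 intensity units. The members and the 40 gene lists were chosen with earlier results of these data known. Some genes are not reported here; counts over lists and over all genes include them. Other genes are named if called, among the 15 largest differences per direction, the 3 largest of a list, or in a 20-gene panel. Those 15 were taken from genes with an unadjusted p under 0.05 (limma), arrays that did not overlap and at least 1 group well above background on both arrays. List members outside that rule were named after their values were seen. In simulated data limma recovered 13 of 67, 41 of 67 and 56 of 66 genes changed by a log2 of 1, 2 and 3, with 5 false calls over 17726 genes. Python 3.11.15 and matplotlib 3.10.9 drew the figures.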

Additional observations from a re-analysis of the deposited data

Results flagged for a closer look

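For 10 genes of the lists, the EB minus ML change differed between days 1 and 3 by a test of the difference itself (limma, Benjamini-Hochberg over 17726 genes). The day 1 change minus the day 3 change was 3.65 for Mgp (5.97 against 2.32, adjusted p = 0.0293), but ML was not well above background at either day, so these sizes have no order. For H2-K1 it was 2.33 (1.22 against -1.12, adjusted p = 0.0293), and for H2-T23 2.23 (0.94 against -1.29, adjusted p = 0.0293), and neither was called at day 1. For Gata6 it was -4.52 (0.18 against 4.70, adjusted p = 0.0293), for Sox17 -4.73 (1.22 against 5.95, adjusted p = 0.0453), and for Mixl1 -4.88 (-1.92 against 2.96, adjusted p = 0.0293). Mixl1 was not well above background in EB at day 1, so only its direction can be read. For Cfc1, a Nodal co-receptor, and Mesp2, a mesoderm factor, it was -3.16 (-0.24 against 2.92, adjusted p = 0.0293) and -4.14 (-0.67 against 3.47, adjusted p = 0.0293). For Msx1 it was -2.95 (-0.91 against 2.04, adjusted p = 0.0453). For Emcn, an endothelial sialomucin, the difference was 2.70 (1.82 against -0.88, adjusted p = 0.0293). Emcn was not well above background in either format at day 1, and its day 1 value has no fold.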

How the results depend on the processing

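The count of 12 called genes was sensitive to the settings. It was 1 without the filter on dim probes, 0 with the strict filter (1218 of 13480 genes at an unadjusted p under 0.05), 23 with the mean of a gene's probes, 3 with the compared groups fitted alone, 20 with a trended prior, and 1 to 5 with 1 array left out; the cause was not tested. No label says whether the clone numbers pair the samples. Replicate differences correlated between -0.155 and 0.226 over pairs of groups, and at 0.112 between EB and ML at day 1, which cannot exclude pairing. The replicate block gave 5 calls, 4 of them among the 12. Normexp gave 16 calls, 5 of them among the 12, and 5 higher in EB. Quantile normalization and the authors' values gave 12, median centring 11, the robust prior 12 and days 1 and 3 alone 8. Mgp was called in every setting that tested it, with a change of 2.14 under normexp. Taking as reversed a sign change of a gene with an unadjusted p under 0.05, or of a list median larger than its spread between replicates, the reversed values were -0.0289 for Emcn with normexp, 0.223 and 0.058 for the neural and the blood and endothelium medians with the strict filter, and 0.0673 (quantile) and 0.0669 (authors' values) for the collagen median, which ran from -0.1798 (without ML replicate 2) to 0.083 (without EB replicate 2) with 1 array left out. Medians within that spread changed sign under at least 1 setting for 18 further lists of the 40. The medians of the YAP and SRF, sterol, core pluripotency and germline lists moved by less than 1.5 times in every setting. Signal over background limits Mgp, Ankrd1 and the other bounded genes.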

Other observations

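No germline gene and no gene of the 2-cell-like state was called at day 1 by limma. At an unadjusted p under 0.05 (limma), 5 and 4 of them were lower, beside 4.86% of all genes. Of 16 tested germline genes 11 lay lower and 2 higher on both EB arrays, beside 29.7% and 22.6% of all genes, and the median was -0.993. Tex101, a germ cell surface protein, was at -1.46 and -1.52 in EB against 0.07 and -0.09 in ML (-1.48 ± 0.36 SE, adjusted p = 0.216, limma), and the X-linked homeobox gene Rhox6 was at -0.56 and -0.92 against 0.96 and 0.85. Of 7 genes of the 2-cell-like state 5 lay lower and 0 higher, with a median of -1.126, which was -0.391 with normexp and -0.237 with the strict filter. Zscan4c was at -3.84 and -3.71 against -2.53 and -1.80, and its near-identical copies may share the probe. Dnmt3l, the cofactor of the de novo DNA methyltransferases, was at 4.42 and 4.47 in EB against 6.11 on both ML arrays (-1.66 ± 0.33 SE, adjusted p = 0.135).

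Signalling genes were less uniform. Of 15 Notch and segmentation genes 8 lay higher and 3 lower on both EB arrays, where 22.6% and 29.7% of all genes did, and none was called. Hes5 (1.04), a target of Notch, was at the top and Lfng (-1.01), which modifies Notch, near the bottom. Among Wnt genes the targets Axin2 (0.87) and Nkd1 (0.98) were higher on both EB arrays, and the ligands went both ways, with Wnt8a at 2.16 and Wnt3a at -1.71. The feedback genes Lefty2 (1.49), which limits Nodal, and Spry1 (1.11), which limits FGF signalling, were also higher on both EB arrays. Their lists went both ways. On both EB arrays 6 of 17 Nodal genes lay higher and 4 lower, and 9 and 5 of 22 FGF and ERK feedback genes. Of 22 Wnt genes 8 lay higher and 4 lower, with a median of 0.159 (-0.186 without EB replicate 1). Of 25 proliferation genes 13 lay lower and 1 higher (10 and 1 with quantile normalization), where 29.7% and 22.6% of all genes did, and none was called. The 1 higher was Mki67 (0.51), and the changes of the others were no lower than -0.51.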
